A study of Rattus norvegicus with 6 samples.

Results

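Expression of 41 genes of intraflagellar transport and ciliary trafficking was examined in the vestibular sensory epithelium of rats given streptomycin. The 41 genes were all protein-coding rows whose symbol matched a fixed set of names. The names cover subunits of the intraflagellar transport (IFT) trains, the dynein-2 motor, the BBSome or its chaperonin, and the ciliary transition zone. Small GTPases that work with them, such as Arl6, were included, and some subunits with other symbols were not. The 41 genes were taken by symbol from a table of 32883 genes, of which 22250 were protein-coding. Earlier results of these data were known when the genes were chosen. The animals were male and female Long-Evans rats. The 3 STREP rats received streptomycin, an aminoglycoside antibiotic that damages hair cells (HCs), at 500 mg/kg subcutaneously in PBS, daily for 6 weeks from postnatal day 21. The 3 Control rats received PBS. Each group held 2 males and 1 female, the female being replicate 3 of both groups, and each library pooled the utricles and cristae of a single animal. The labels place all 6 libraries in the same batch.

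Cilia are built and maintained by IFT trains, which carry cargo along the microtubule axoneme. The IFT-B complex moves outward from the cell body on kinesin-2 motors, and the IFT-A complex takes part in the return trip on dynein-2 and in the entry of membrane proteins. The BBSome, a coat-like complex recruited to membranes by ARL6, removes and sorts membrane proteins, and the transition zone at the base of the cilium acts as its gate. In the vestibular organs a single kinocilium stands beside the stereocilia of each HC, and most other cell types can carry a primary cilium, so these genes are not confined to HCs.

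Library totals ran from 48568191 to 59906048 counts in Control and from 29333584 to 33744909 in STREP, so every STREP library was smaller than every Control library. Each of the 41 genes had at least 175 counts in every library. Counts were divided by a size factor for each library, and the result is called the normalised count. It is not corrected for gene length, so levels are compared between animals and not between genes. Defining HC markers (Myo7a, Pou4f3, Otof) were present in every library. Calls follow the rule given in the next paragraph. Of 16 HC markers measured, 4 were called lower (Kcna10, Atp2b2, Tmc2, Ptprq) and 1 higher (Gfi1), and the summed normalised count of the list was 130772 to 144171 in Control and 98637 to 117126 in STREP. Myo7a and Lhfpl5 were also lower, by log2 fold changes of -0.49 and -0.45 that did not reach 1.5-fold (DESeq2 adjusted p-values of 0.0162 and 0.0161). Log2 fold changes were below 0 in 12 of the 16 and above 0 in 4. All STREP values lay below all Control values in 8 and above them in 2, against 8.63% and 9.12% of all genes tested. None of 10 supporting cell markers was called, and their sum was 590120 to 750758 in Control and 652720 to 1130720 in STREP. Called genes in the other lists were Tubb3 (higher, of 6 neuron markers) and Sox10 and Prx (higher and lower, of 6 Schwann cell markers), and none of the 4 melanocyte, 6 macrophage, 6 fibroblast and 5 dark cell markers was called. Among the dark cell markers, Slc12a2 was lower by a log2 fold change of -0.55 that did not reach 1.5-fold (DESeq2 adjusted p-value of 0.0035). In 2 of these 5 markers (Slc12a2 and Atp1b2) all STREP values lay below all Control values. Their log2 fold changes were below 0 in 4 and above 0 in 1. The dark cell sum was 46007 to 51489 in Control and 31988 to 38877 in STREP, and the Schwann cell sum 224870 to 305570 and 122132 to 250594. A single marker, on the neuron list, was at 0 in a library. Whether these shifts in markers have a part in the values of the ciliary genes was not tested. In bulk tissue, fewer cells of a type and less RNA per cell cannot be told apart.

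None of the 41 genes was called changed between STREP and Control. A call required a DESeq2 adjusted p-value under 0.05, corrected over all 16250 genes tested, and a fold change over 1.5 in either direction. By that rule 3.24% of all genes tested were called, 1.87% higher and 1.37% lower, and 3.72% passed on the adjusted p-value alone. The smallest adjusted p-value among the 41 genes was 0.308 with DESeq2, fitted without a covariate. It was 0.337 with the quasi-likelihood test of edgeR, which called 0 of the 41 and 1.77% of the genes it tested. Before adjustment, 2 genes had a DESeq2 p-value under 0.05, which is 4.88% of the 41 against 12.2% of all genes tested. With edgeR and its count filter 3 genes did so (Ift22, Tmem216 and Rpgr), and without the filter 2 did. The matching shares of all genes with edgeR were not computed.

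The log2 fold changes of STREP over Control lay from -0.41 to 0.35, or from 0.754-fold to 1.28-fold. Their median was 0.026, with 22 genes above 0 and 19 below, and the median over all genes tested was 0.0069. In 34 of the 41 genes the log2 fold change lay within 0.25 of 0. The standard deviation of the 41 log2 fold changes was 0.19 and the median standard error of a single one was 0.18. Among the 9186 genes with mean normalised counts in the same range, from 272 to 6066, the standard deviation of the log2 fold changes was 0.32 and the median size 0.16, against 0.15 for the 41.

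A missing call does not show that a gene kept its level, so the 95% interval of each log2 fold change was compared with a 1.5-fold limit. In 29 of the 41 genes (70.7%) the whole interval lay within 1.5-fold in both directions, against 37.5% of all genes tested and 58.0% of genes in the same range of counts. For the other 12 genes, among them Bbs5, Bbs12, Cep290, Ift22, Ift27, Ift52, Ift74, Ift81, Tctn3, Tmem216 and Wdr19, a 1.5-fold change in at least one direction was not excluded by the interval. The lowest bound was 0.584-fold, for Bbs12, and the highest was 1.79-fold, for Ift52. The count of 29 fell to 14 with library totals as size factors and to 10 with the males alone, a fit on fewer rats. The shares of all genes under these settings were not computed.

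**Figure D1:**
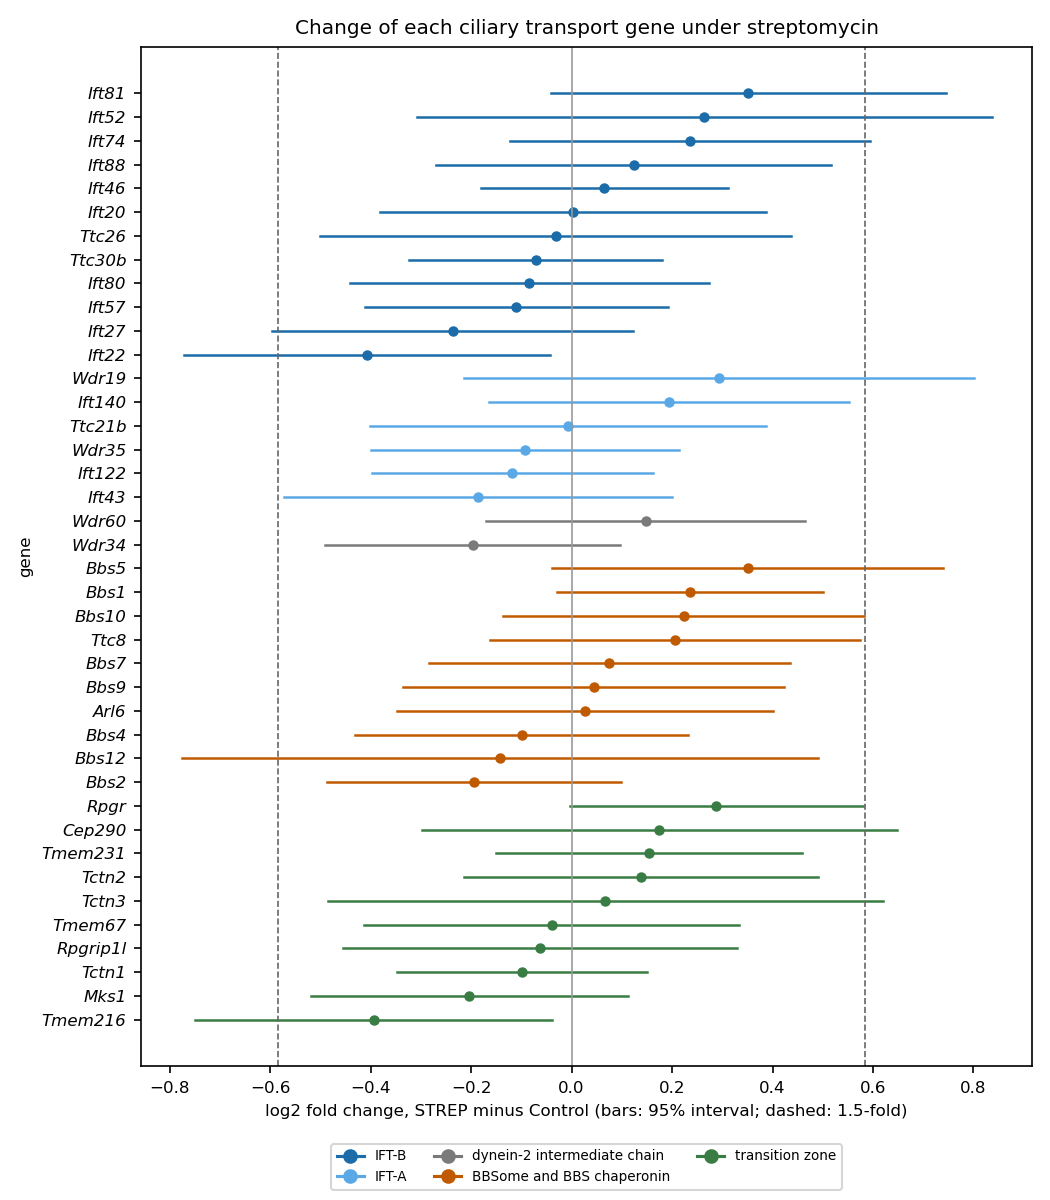
Log2 fold change of STREP over Control for the genes of the 5 role groups, coloured by group. Points are DESeq2 estimates, bars are 95% intervals and dashed lines mark 1.5-fold. All points lie between the dashed lines, and 29 intervals do so along their whole length.

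The spread between animals of a group was moderate. The coefficient of variation over the 3 Control rats ran from 0.869% (Mks1) to 45.5% (Ift52), with a median of 10.6%, and the STREP median was 10.9%. The medians for genes in the same range of counts were 11.8% and 12.7%. In Control, replicate 3, the female, gave the lowest value of its group for 20 of the 41 genes (48.8%, against 32.8% of all genes), whereas the STREP female did so for 14 (34.1%, against 34.3%). In STREP, replicate 2, a male, gave the highest value for 19 (46.3%, against 35.0%).

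**Figure D2:**
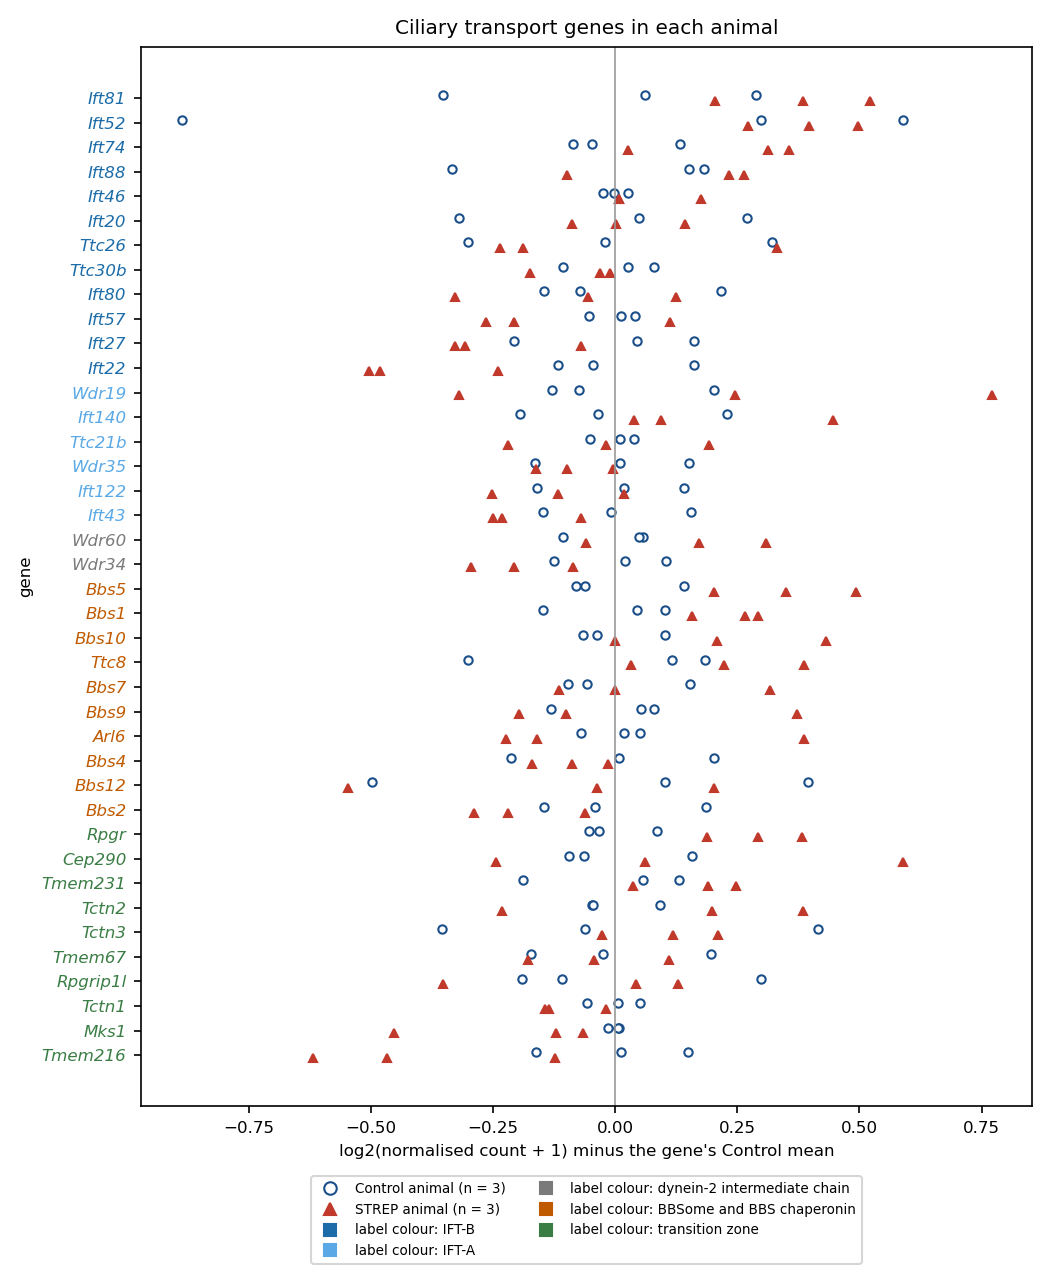
Values of the genes of the 5 role groups in each animal, as log2(normalised count + 1) minus the mean of the 3 Control rats. Circles are Control rats and triangles STREP rats. The groups overlap in all plotted genes except Ift22 and Mks1, which are lower in STREP, and Bbs1, Bbs5 and Rpgr, which are higher.

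In 5 of the 41 genes (12.2%) the 3 STREP values lay entirely above or below the 3 Control values, while 17.8% of all genes tested had such separated groups, 9.12% with STREP higher and 8.63% with STREP lower. The 3 with higher STREP values were Bbs1, Bbs5 and Rpgr, and the 2 with lower values were Ift22 and Mks1. For each of these 5 genes the exact two-sided permutation p-value was 0.1, the smallest that 3 animals against 3 can give. With counts scaled to library totals in place of size factors, 1 of the 41 genes (Tmem216) had separated groups. The share of all genes under that scaling was not computed, so this count has no background to set it against.

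Among the 12 IFT-B genes (Ift20, Ift22, Ift27, Ift46, Ift52, Ift57, Ift74, Ift80, Ift81, Ift88, Ttc26 and Ttc30b), 6 log2 fold changes were above 0 and 6 below, with a median of -0.014. Ift22 encodes a small GTPase-like subunit of the complex and had the lowest log2 fold change of the 41 genes. Its normalised counts were 773, 893 and 735 in the Control rats and 571, 676 and 562 in the STREP rats. All 3 STREP values were below all 3 Control values. The log2 fold change was -0.41 ± 0.19 (SE, n = 3 per group), with a DESeq2 p-value of 0.0286 and an adjusted p-value of 0.308.

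IFT27, another small GTPase of IFT-B, connects the trains with the export of the BBSome. Ift27 had normalised counts of 979, 822 and 1062 in Control and 756, 905 and 767 in STREP. The groups overlapped through Control replicate 2, and the log2 fold change was -0.24 ± 0.18 (SE). IFT81 and IFT74 form a module of the IFT-B core that binds tubulin. Ift81 had 1408, 903 and 1202 in Control and 1654, 1327 and 1505 in STREP, a log2 fold change of 0.35 ± 0.20 with a DESeq2 adjusted p-value of 0.506. It was the highest log2 fold change of the 41 genes, and the groups overlapped because Control replicate 1 lay above STREP replicate 2. For its partner Ift74 the log2 fold change was 0.24 ± 0.18.

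IFT88 is a core IFT-B subunit without which cilia do not form normally. Ift88 had normalised counts of 1249, 873 and 1223 in Control and 1294, 1322 and 1028 in STREP, so the groups overlapped, and its log2 fold change was 0.12 ± 0.20. Ift52, another core subunit, was singled out after its values were seen because a single rat set its spread. It had 2394, 860 and 1958 in Control and 1921, 2246 and 2096 in STREP. Control replicate 2 was far below the other 5 animals, and the log2 fold change of 0.26 ± 0.29 became -0.061 without it. The same rat had the lowest Control value of Ift81, Ift88, Ift20 and Ift27 and the highest of Ift22, Ift57 and Ift80. Over the 41 genes it was lowest in 13 (31.7%, against 33.9% of all genes) and highest in 16. The remaining IFT-B genes (Ift20, Ift46, Ift57, Ift80, Ttc26 and Ttc30b) had log2 fold changes from -0.11 to 0.066. Ttc30b has a near-identical copy in the table, Ttc30a1, and its value is uncertain for that reason.

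The 6 IFT-A genes were Ift43, Ift122, Ift140, Wdr19, Wdr35 and Ttc21b. Their median log2 fold change was -0.050, with 2 above 0 and 4 below, and no gene had separated groups. WDR19 (also named IFT144) and IFT140 belong to the core of the complex. Wdr19 had 884, 1070 and 851 in Control and 1102, 1587 and 745 in STREP. The STREP values spanned the whole Control range, with a coefficient of variation of 36.9%, and the log2 fold change was 0.29 ± 0.26. Ift140 had 1991, 1659 and 1484 in Control and 1813, 2315 and 1744 in STREP, which overlapped, with a log2 fold change of 0.19 ± 0.18. Wdr19 and Ift140 were both highest in STREP replicate 2. The other 4 log2 fold changes ran from -0.19 (Ift43) to -0.0068 (Ttc21b).

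Wdr34 and Wdr60 encode the intermediate chains of dynein-2, the motor of the return trip. Wdr60 had 1253, 1403 and 1397 in Control and 1671, 1520 and 1295 in STREP, with a log2 fold change of 0.15 ± 0.16, and its groups overlapped. Wdr34 had a log2 fold change of -0.20 ± 0.15, and its groups also overlapped.

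The BBSome and its chaperonin were represented by Bbs1, Bbs2, Bbs4, Bbs5, Bbs7, Bbs9 and Ttc8 (subunits of the complex), Bbs10 and Bbs12 (chaperonin-like proteins needed for its assembly) and Arl6. Of these 10 genes, 7 had log2 fold changes above 0 and 3 below, with a median of 0.059. BBS5 binds phosphoinositides. Bbs5 had 415, 477 and 409 normalised counts in Control and 610, 498 and 552 in STREP. All 3 STREP values lay above the Control values, though the gap between the nearest animals was small, and the log2 fold change was 0.35 ± 0.20 with a DESeq2 adjusted p-value of 0.501.

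BBS1 is the subunit through which ARL6 recruits the complex to membranes. Bbs1, singled out after its values were seen, had 3257, 3389 and 2852 in Control and 3523, 3866 and 3797 in STREP. The groups were separated and the log2 fold change was 0.24 ± 0.13. Bbs4, whose product binds to the centriolar satellite protein PCM1, had 1307, 1496 and 1121 in Control and 1154, 1287 and 1222 in STREP. The STREP values all fell inside the Control range, and the log2 fold change was -0.099 ± 0.17. The other genes of the group ran from a log2 fold change of -0.19 (Bbs2) to 0.22 (Bbs10), with Arl6 at 0.026.

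The 10 transition zone genes were Tctn1, Tctn2, Tctn3, Tmem67, Tmem216, Tmem231, Cep290, Rpgr, Rpgrip1l and Mks1, and 5 log2 fold changes lay above 0 and 5 below, with a median of 0.014. Tmem216 encodes a tetraspan membrane protein of the gate. It had 1663, 1878 and 2064 in Control and 1212, 1346 and 1710 in STREP. The female STREP rat lay just above the lowest Control rat, so the groups overlapped. The log2 fold change was -0.39 ± 0.18 (SE, n = 3 per group), with a DESeq2 p-value of 0.0300 and an adjusted p-value of 0.314. With sex as a covariate the log2 fold change was -0.40 and the DESeq2 adjusted p-value 0.109. CEP290 bridges the axoneme and the ciliary membrane. Cep290 had 597, 609 and 710 in Control and 538, 958 and 664 in STREP, so its groups overlapped and both extremes were STREP rats. Its log2 fold change was 0.17 ± 0.24.

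Rpgr and Mks1 had separated groups in opposite directions and were singled out after their values were seen. Rpgr, whose product regulates traffic through the connecting cilium of photoreceptors, had 1125, 1222 and 1109 in Control and 1410, 1312 and 1500 in STREP. The log2 fold change was 0.29 ± 0.15, with a DESeq2 p-value of 0.0526 and an adjusted p-value of 0.421. Mks1, a B9-domain protein of the gate, had 1612, 1609 and 1587 in Control and 1170, 1474 and 1532 in STREP. The Control rats lay very close together and the STREP rats apart, and the log2 fold change was -0.20 ± 0.16. In RefSeq the range of Mks1 overlaps that of Epx, and the libraries carry no strand to tell apart reads from any exon they share. Whether their exons overlap was not checked. Among the other 6 genes the log2 fold changes ran from -0.098 (Tctn1) to 0.15 (Tmem231).

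**Figure D3:**
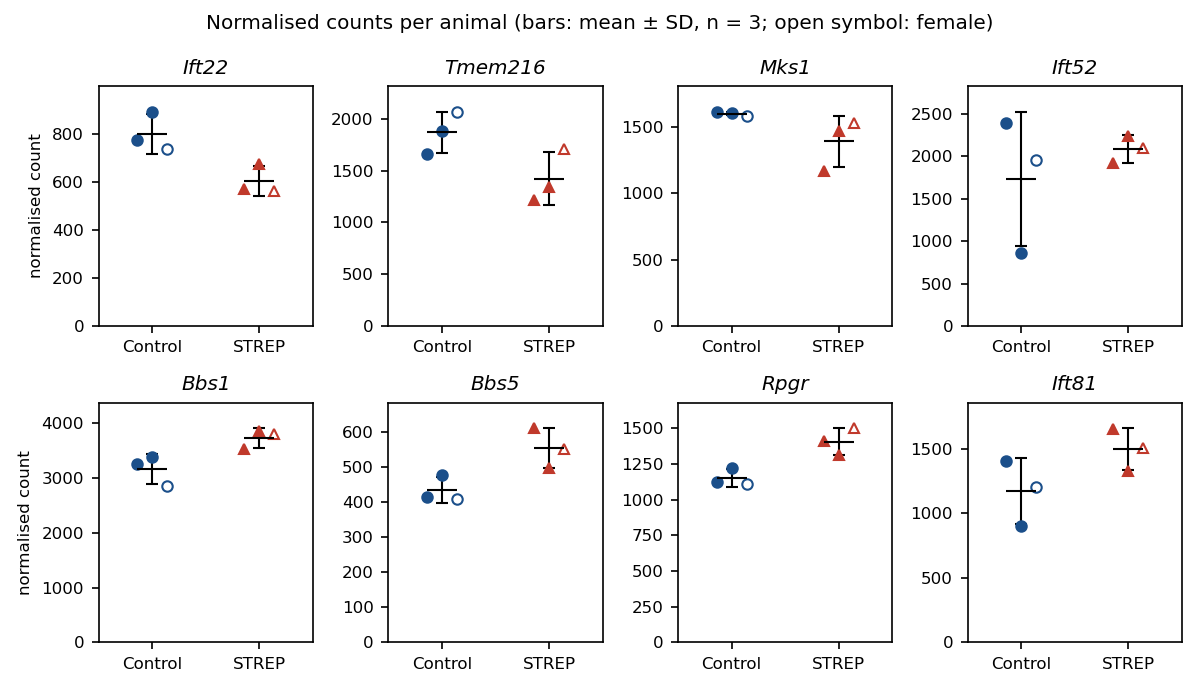
Normalised counts of 8 of the genes in each of the 6 rats, with the mean and SD of each group (n = 3) and open symbols for the females. Ift22 and Mks1 are lower and Bbs1, Bbs5 and Rpgr higher in all 3 STREP rats, Tmem216 and Ift81 overlap, and in Ift52 Control replicate 2 lies at 860 while the other 5 rats lie from 1921 to 2394.

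The response was also compared between the sexes. In a DESeq2 model with a sex by treatment term, 0 of the 41 genes passed an adjusted p-value of 0.05, 1 had an unadjusted p-value under 0.05, and the smallest adjusted p-value was 0.822. With 1 female in each group this comparison has little precision.

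Other genes of the same pathways were measured from fixed lists of IFT subunits under other symbols, IFT motors, BBSome partners, further transition zone proteins, carriers of lipidated cargo, Rab GTPases of ciliary vesicles and ciliary transcription factors. Of the 47 genes listed there, 45 were tested, and 1 was called higher and 0 lower, with a median log2 fold change of -0.041. The called gene was Rab10, a GTPase of exocytic membrane traffic with roles well beyond the cilium. It had 4360, 2621 and 4271 normalised counts in Control and 6030, 5824 and 7638 in STREP. The groups were separated and the log2 fold change was 0.79 ± 0.21 with a DESeq2 adjusted p-value of 0.00652. It was no longer called with edgeR, with library totals as size factors, or without STREP replicate 3, where the log2 fold change was 0.66 and the DESeq2 adjusted p-value 0.0637. Rab3ip, which encodes Rabin8, the exchange factor for RAB8, had 3037, 3186 and 3052 in Control and 2072, 2388 and 2040 in STREP. Its groups were separated by a wide gap and its log2 fold change was -0.51 ± 0.14 with a DESeq2 adjusted p-value of 0.00700, but the change did not reach 1.5-fold. Without STREP replicate 2 it was -0.59 and met both thresholds. The adjusted p-value rose above 0.05 with edgeR (0.0641 with the count filter and 0.0684 without it). With DESeq2 the adjusted p-value was 0.425 with library totals, 0.148 in the males alone, 0.0644 without Control replicate 2 and 0.0672 without STREP replicate 1. The paper, at the same thresholds, lists Rab3ip as lower in all of its comparisons, streptomycin included, and as selective to HCs. The main fit here did not call it.

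No other gene of these lists was called. Dync2li1, the light intermediate chain of dynein-2, had 2540, 2807 and 2617 in Control and 2337, 2029 and 2006 in STREP, which were separated, with a log2 fold change of -0.32 and a DESeq2 adjusted p-value of 0.254. Kif3b, a kinesin-2 subunit, stood at 0.27. Pde6d, a carrier of prenylated cargo, had separated groups with a log2 fold change of -0.34 and a DESeq2 adjusted p-value of 0.251, and Arl3, the GTPase that releases such cargo, stood at -0.19. At the transition zone, Tmem107 had separated groups with a log2 fold change of -0.36 and a DESeq2 adjusted p-value of 0.338. Log2 fold changes were -0.33 for Hspb11 and 0.19 for Ttc30a1, both IFT-B subunits, and 0.087 for Mkks and 0.099 for Sdccag8, both BBSome partners. Among the RFX factors, which regulate ciliary genes, Rfx7 stood at -0.28, Rfx1 at 0.13, Rfx2 at 0.025 and Rfx3 at 0.080. Rfx4 had counts in Control replicate 3 and in no other library.

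The motile axoneme was taken as the contrasting set, because its dynein arms, central pair and radial spokes serve ciliary beating and not transport. Of 22 such genes found, 20 were tested, and 2 were called lower and 0 higher, where 1.37% of all genes tested were called lower, with a median log2 fold change of -0.24. Separated groups were found in 9 of the 20 (45.0%), 8 of them lower in STREP. The share was 12.2% for the transport genes (5 of 41), 20.0% for the other pathway lists (9 of 45) and 17.8% for all genes tested, with 8.63% lower in STREP. Dnah7, an inner arm dynein heavy chain, had 1450, 1483 and 1692 normalised counts in Control and 550, 729 and 561 in STREP. The log2 fold change was -1.33 ± 0.18 with every STREP rat far below every Control rat. Dnah5, an outer arm heavy chain, had 1327, 1068 and 1084 in Control and 748, 665 and 636 in STREP. Its log2 fold change was -0.76 ± 0.18, also with separated groups. With library totals as size factors Dnah5 was no longer called (DESeq2 adjusted p-value of 0.0979). Cfap126 had separated groups, lower in STREP, with a log2 fold change of -0.52 and a DESeq2 adjusted p-value of 0.0520. It was not called here, whereas the paper lists it as lower in all of its comparisons. The paper also describes a role for Cfap126 in stereocilium development. Whether the genes of this list are confined to motile cilia in this tissue was not tested. A difference between the lists was not tested, and the values are a description of these genes.

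**Figure D4:**
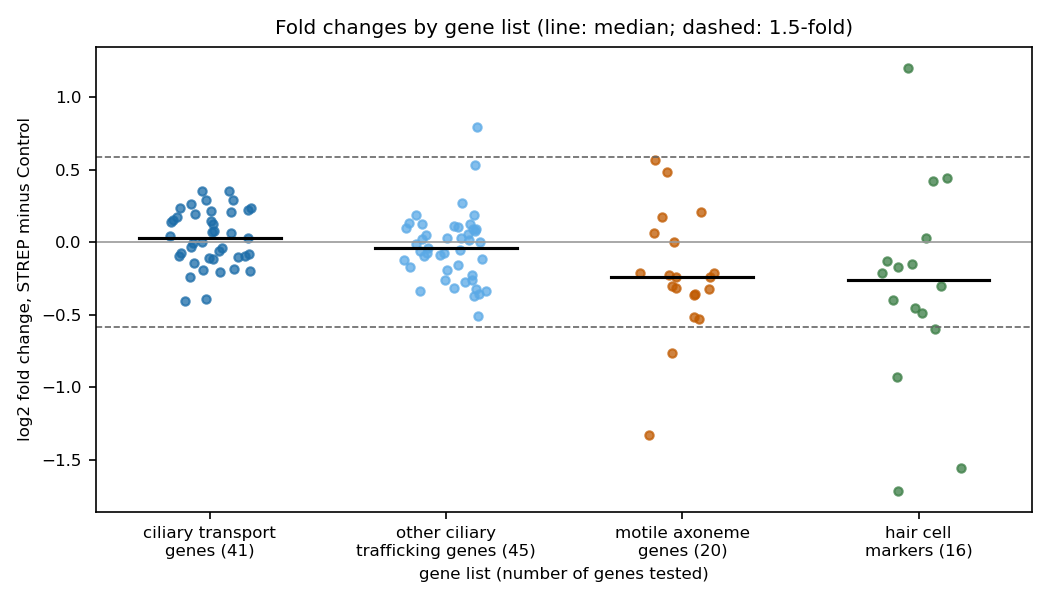
Log2 fold change of STREP over Control for each tested gene of 4 lists, with a line at the median of each list and dashed lines at 1.5-fold. The 41 transport genes lie from -0.41 to 0.35, while Dnah7 and Dnah5 of the motile axoneme list lie at -1.33 and -0.76 and Rab10 of the other trafficking genes at 0.79.

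Promoters were read as a sequence feature that the choice of genes did not use. RefSeq promoter windows of the GRCr8 rat genome, covering 250 bases before and 50 after the start of each gene, were matched for 35 of the 41 genes. RFX transcription factors bind an inverted repeat known as the X-box. One arm of the repeat, read as GTTGCC on either strand, was present in 17 of the 35 windows (48.6%), against 12.2% of all 33469 windows of that length and 12.7% of the windows of genes tested. A full repeat, with the arms GTTNCC and GGNAAC separated by 1 or 2 bases and so overlapping the single arm wherever that arm reads GTTGCC or GGCAAC, was present in 4 (11.4%, in Mks1, Arl6, Tctn1 and Tctn3), against 0.795% of all windows. The arm was found in 6 of 9 transition zone windows, 5 of 9 IFT-B windows, 4 of 9 BBSome windows, 2 of 6 IFT-A windows and 0 of 2 dynein-2 windows. It was also present in 47.5% of the other trafficking genes, in 36.8% of the motile axoneme genes and in 1 of 14 HC marker windows. Restricting the window to the 250 bases before the start gave 28.6% for the transport genes, 37.5% for the other trafficking genes and 31.6% for the motile axoneme genes, against 9.89% of all windows. The order of the lists therefore depended on the window.

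**Figure D5:**
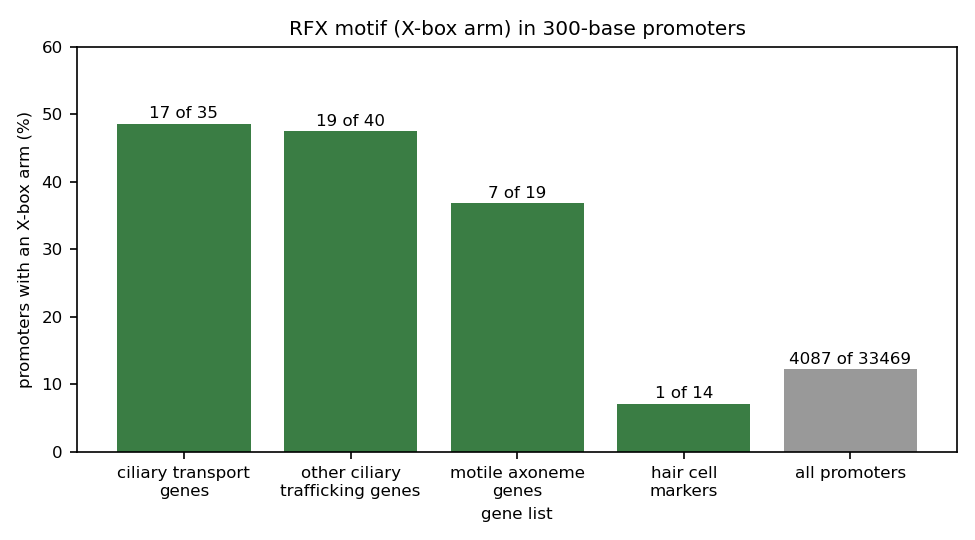
Share of 300-base RefSeq promoter windows (GRCr8) that hold the X-box arm on either strand, by gene list, with the number of windows above each bar. The share is 48.6% for the transport genes and 12.2% for all windows.

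Of the 21 X-box arms in the 17 windows, 9 began within 100 bases before the start and 10 at or after it. The following stretches show a full repeat in Mks1 and Tctn3 and an arm in the genes Bbs5, Ift81 and Ift88, whose values are given above. They are written 5′ to 3′ on the strand of the gene, with the motif in capitals. Positions are counted from the start as 0, and the motif begins at -56 in Mks1, -172 in Tctn3, -39 in Bbs5, -11 in Ift81 and -34 in Ift88.
Mks1 (GRCr8 chr10:73153142-73153201, plus strand): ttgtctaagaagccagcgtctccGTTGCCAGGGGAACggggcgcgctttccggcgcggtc
Tctn3 (GRCr8 chr1:249374835-249374894, minus strand): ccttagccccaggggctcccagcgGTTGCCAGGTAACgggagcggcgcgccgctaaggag
Bbs5 (GRCr8 chr3:74818574-74818633, plus strand): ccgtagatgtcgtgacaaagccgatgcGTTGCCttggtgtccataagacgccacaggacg
Ift81 (GRCr8 chr12:39618562-39618621, plus strand): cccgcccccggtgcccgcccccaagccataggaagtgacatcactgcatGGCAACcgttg
Ift88 (GRCr8 chr15:35688926-35688985, plus strand): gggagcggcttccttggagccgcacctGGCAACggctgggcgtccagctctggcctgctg
In the last pair the site reads on the opposite strand, as GGCAAC.

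The 2 genes with an unadjusted p-value under 0.05, Ift22 and Tmem216, had no X-box arm in their windows. The last 100 bases before each start are shown for comparison with the stretches above.
Ift22 (GRCr8 chr12:25405511-25405610, minus strand): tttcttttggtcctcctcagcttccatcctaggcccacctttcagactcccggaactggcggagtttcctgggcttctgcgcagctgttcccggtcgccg
Tmem216 (GRCr8 chr1:216626520-216626619, minus strand): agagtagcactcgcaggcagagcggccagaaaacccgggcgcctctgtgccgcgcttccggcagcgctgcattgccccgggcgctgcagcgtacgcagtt

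Fold changes were then set beside the motif. The 17 genes with it had a median log2 fold change of 0.067 (from -0.24 to 0.35, with 11 above 0), and the 18 without it one of -0.035 (from -0.41 to 0.26, with 8 above 0). The windows come from a later genome build than the counts, and a matching run of letters does not show that a factor binds there.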

How the data were processed

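RNA from the vestibular epithelium of 6 rats was reverse-transcribed with oligo-dT, amplified and fragmented into libraries that do not mark the strand. Per the labels, the authors aligned reads with STAR 2.5.3a and quantified genes with RSEM 1.3.0. The paper names the Rnor6.0 genome. The deposited values are expected counts, estimated reads per gene without scaling between libraries. They held 0 entries that were not whole, so rounding changed nothing.

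Counts were fitted for all 32883 genes in R 4.3.3 with DESeq2 1.42.0 (Wald test of treatment, size factors by the median of ratios, independent filtering at 0.05, Benjamini-Hochberg adjustment over all genes tested). Intervals are the estimate and its standard error at 95%. Alternatives used edgeR 4.0.16 (quasi-likelihood, with the default count filter of edgeR or none) and DESeq2 with other settings. The DESeq2 settings were a filter of 10 counts in 3 libraries, no independent filtering, other size factors and sex as a covariate. Others were males alone, counts thinned to 29333584 per library, and each animal left out. The scripts were tested on simulated data. Replicates were numbered in order of deposition and are separate animals. A floor of 3 counts came to 0.0501 to 0.102 CPM (counts scaled to the library total) over libraries and covers counting error only.

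The genes, the lists of other ciliary genes and the cell type markers were chosen with earlier results of these data known. The genes are named by role, and the values of 2 genes, 1 of the 41 and 1 of the other lists, are not reported here. Values per animal are given for genes called or with an unadjusted p-value under 0.05, for the 3 highest and 3 lowest log2 fold changes (mean of at least 100 normalised counts) and for a reference subunit per role group (Ift88, Ift140, Wdr60, Bbs4, Cep290). List genes are named where called or among the 2 smallest p-values of their list, and others were chosen after their values were seen. Ift172 was not analysed here. Promoters came from RefSeq (GRCr8) by symbol, and Bbs10, Ift57, Ift74, Ift80 and Tmem67 were among those without a match. RefSeq (GRCr8) places 18 of the 41 genes over the range of another gene, from start to end with introns included. Without strand, reads from any stretch transcribed in both genes cannot be told apart. Whether their exons overlap was not checked.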

Additional observations from a re-analysis of the deposited data

How the results depend on the processing

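The count of transport genes called was 0 under every alternative, and their median log2 fold change lay from 0.0044 to 0.028, or from -0.021 (without Control replicate 2) to 0.062 with 1 animal left out. With library totals as size factors, 14 of the 41 genes had an interval within 1.5-fold and 1 had separated groups, while 0 other pathway genes and 1 motile axoneme gene were called. With the males alone, and so fewer rats, the interval count was 10. The matching shares of all genes under these settings were not computed. The cause of the lower counts was not tested. Without a fold threshold 2 other pathway genes were called, with edgeR 0 with the count filter and 0 without it, and from 0 (without STREP replicate 3) to 2 (without STREP replicate 2) with 1 animal left out. The promoter share was 28.6% in the 250 bases before the start. The alternatives for the motile axoneme, the interval count, the library totals for separated groups and the shorter window were chosen after seeing the data.

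Of 369 log2 fold changes of single transport genes under the other settings, 363 kept their sign and side of the threshold. Those that changed sign were Ift20 (-0.0029 with TMM size factors and -0.0029 with edgeR without a count filter), Arl6 (-0.028 with library totals, -0.17 in the males and -0.014 thinned) and Ttc21b (0.014 thinned). Mkks (-0.020) and Sdccag8 (-0.095) did so in the males. With 1 animal left out, 27 of 246 values in 17 genes changed sign, 9 of them without Control replicate 2 (Tctn3, Ift80, Ift52, Bbs9, Bbs4, Ift20, Ift88, Arl6 and Rpgrip1l), 8 without STREP replicate 2 (Bbs12, Ift80, Ttc26, Cep290, Wdr19, Ift20, Rpgrip1l and Tctn2), 4 without Control replicate 1 (Bbs12, Ttc26, Ttc21b and Tmem67), 4 without STREP replicate 1 (Bbs7, Ttc26, Ttc21b and Bbs9) and 2 without STREP replicate 3 (Tmem67 and Arl6). The ranges with 1 animal left out were -0.095 to 0.30 for Tctn3, -0.059 to 0.16 for Bbs7, -0.36 to 0.066 for Bbs12, -0.19 to 0.031 for Ift80, -0.23 to 0.14 for Ttc26, -0.11 to 0.090 for Ttc21b, -0.061 to 0.56 for Ift52, -0.12 to 0.062 for Tmem67, -0.090 to 0.35 for Cep290, -0.15 to 0.15 for Bbs9, -0.20 to 0.0065 for Bbs4, -0.018 to 0.53 for Wdr19, -0.14 to 0.15 for Ift20, -0.026 to 0.23 for Ift88, -0.19 to 0.14 for Arl6, -0.16 to 0.10 for Rpgrip1l, -0.0045 to 0.29 for Tctn2, -0.021 to 0.39 for Ttc30a1, -0.056 to 0.16 for Mkks, -0.085 to 0.30 for Sdccag8 and -0.47 to 0.024 for Rfx7. Rab10 ranged from 0.59 to 0.91 and Rab3ip from -0.59 to -0.47.

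No paired analysis was made because the labels give no pairs of Control and STREP animals. The titles of STREP replicates 1 and 2 share an identifier stem, whose meaning the labels do not give. The larger Control libraries and the group cannot be told apart.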

Other observations

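Mks1, B9d1 and B9d2 encode the 3 B9-domain proteins of the transition zone, which act together in the gate, and the trio was picked after its values were seen, so no test is given. B9d1 had 418, 370 and 378 normalised counts in Control and 294, 270 and 340 in STREP, and B9d2 had 1153, 1198 and 1199 in Control and 1021, 1040 and 787 in STREP. As in Mks1, all 3 STREP values were below all 3 Control values in both genes, which held for 8.63% of all genes tested. The log2 fold changes were -0.20 for Mks1, -0.37 for B9d1 and -0.32 for B9d2, and none was called (DESeq2 adjusted p-values of 0.726, 0.544 and 0.469). With 1 animal left out they ran from -0.28 to -0.092 for Mks1, -0.46 to -0.30 for B9d1 and -0.39 to -0.20 for B9d2. On CPM, counts scaled to the library total, B9d1 kept separated groups, from 8.96 to 11.4 in Control and from 6.73 to 7.86 in STREP, while B9d2 (28.4 to 31.4 and 15.6 to 30.3) and Mks1 (37.7 to 43.9 in Control, with a highest STREP value of 42.9) overlapped.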
